A study of Oryza sativa with 6 samples.

Results

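The comparison described here sets rice mesocotyls after 30 min of light against mesocotyls that stayed in darkness for 5 days. In a rice seedling the mesocotyl joins the seed to the base of the coleoptile and lengthens in darkness. Seedlings of the indica cultivar P25 were raised in the dark for 5 days and then lit for 30 min, or were collected at 5 days without light. Each condition was 1 RNA pool, sequenced as 1 poly(A) library, so there are no replicates, no test is possible and every difference is given by its size. The other 4 libraries of the series, from 1-day and 3-day dark seedlings and from 5-day dark seedlings lit for 60 min or 24 h, are used only to place the values. The number of seedlings per pool, the quality of the light and the hour of sampling were not given in the sources used here.

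Values are FPKM, fragments scaled to transcript length and library size. Loci entered when they reached at least 1 FPKM in either of the 2 libraries, which held for 20552 of the 35500 loci of the table. Differences are log2 of (FPKM after 30 min + 1) over (FPKM at 5 days of darkness + 1), and a locus is called when it differs by at least 1 in either direction, a 2-fold change on that scale. Called loci are further marked where the 30-min value lay above the highest or below the lowest of the 3 dark libraries. In bulk tissue, a change in the share of a cell type and a change in RNA per cell cannot be told apart.

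Light reaching a dark-grown seedling is read by phytochromes, cryptochromes and phototropins. In darkness the COP1 ubiquitin ligase removes factors such as HY5 that promote light-grown development, while PIF factors hold back that programme; light reverses both. Jasmonate is an oxylipin hormone made from linolenic acid, best known from wounding and defence, and in rice its signalling and that of the phytochromes are linked in the seedling. JAZ proteins, named TIFY in rice, repress jasmonate responses and are themselves switched on by the hormone, so that they are widely used as a readout of it.

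After 30 min of light, 2257 loci (11.0% of those compared) exceeded their 5-day dark level by 2-fold or more and 2717 (13.2%) were lower by as much. The other 15578, 75.8%, lay within 2-fold, and the median difference over all loci was 0.01. The 2 directions differed in how they stood to the earlier dark libraries. Among the higher loci, 1780 (8.66% of all compared) exceeded all 3 dark libraries, that is 78.9% of the higher ones. Among the lower loci, 866 (4.21% of all compared) lay below all 3 dark libraries, 31.9% of the lower ones, and the remaining 1851 lay at or above a level already present at 1 or 3 days of darkness. With a margin of 2-fold to the nearest dark library, 1088 loci (5.29%) were above and 182 (0.886%) below. The contrast between the directions depended on scaling. With the libraries scaled by the median ratio of loci it was smaller: 1468 of 2094 higher loci lay above all 3 dark libraries and 1057 of 2567 lower loci below.

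The median level of the higher loci was 6.54 FPKM after 30 min of light, against 1.30 FPKM in the 5-day dark library, with 1.24 and 1.82 FPKM at 1 and 3 days of darkness. For the lower loci it was 0.523 FPKM after 30 min, against 5.17 FPKM in the 5-day dark library, with 0.906 and 1.07 FPKM at 1 and 3 days. The lower loci were thus chosen by a 5-day dark level that the 2 earlier dark libraries did not share. Of the higher loci, 549 were listed at exactly 0 in the 5-day dark library, and of the lower loci 780 were listed at 0 after 30 min. Such a 0 can be a failed estimate. These loci stay in the counts and list medians through the 1 added to each value, but no fold is given for a named one.

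**Figure D1:**
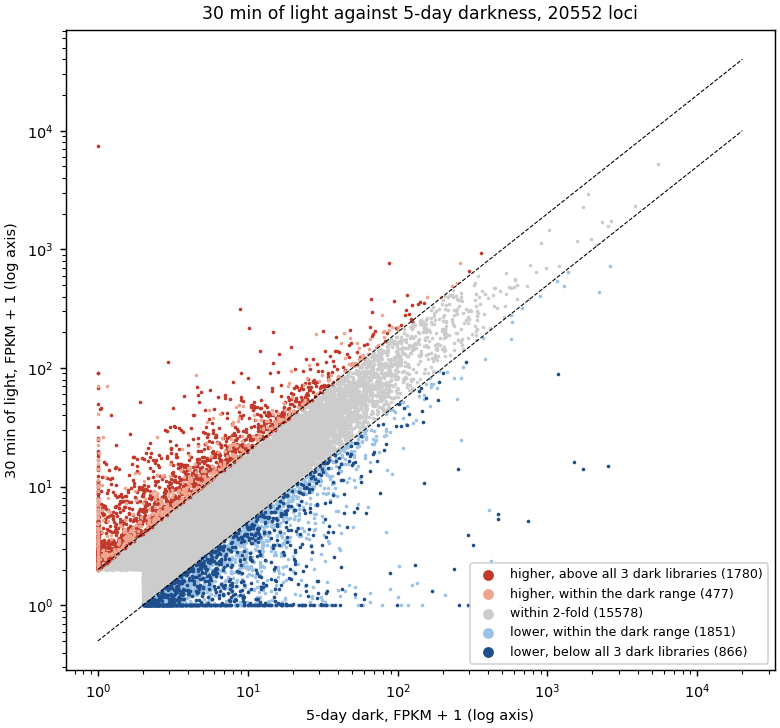
Each point is 1 of 20552 loci, with FPKM + 1 after 30 min of light on the vertical axis and FPKM + 1 at 5 days of darkness on the horizontal axis, both logarithmic; dashed lines mark 2-fold. Of the called loci, 1780 higher ones lie above all 3 dark libraries and 866 lower ones below all 3.

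The 5-day dark library itself stood apart in markers of green tissue. The 18 measured loci of the green leaf list summed to 9.37 FPKM after 30 min of light, against 349 FPKM in the 5-day dark library. The sums at 1 and 3 days of darkness were 35.2 and 12.7 FPKM, that after 60 min of light was 1015 and that after 24 h was 32.3. After 30 min, 5 of the 18 were listed at 0, against 0 of 18 at 5 days of darkness. Shoot meristem markers summed to 149 FPKM after 30 min and 127 FPKM at 5 days, root markers to 23.2 and 30.6, vascular markers to 94.0 and 82.7, epidermis and cuticle markers to 512 and 490. The part of green tissue in the differences below was not tested. Nor was it tested whether the tissue collected or the labels of the 5-day dark and 60-min libraries differ from the rest; a wrong 5-day label would change what every difference given here compares. The main groups are therefore also set against the 3-day dark library, in which 1 locus, ZS07g0251700, held 14.9% of all FPKM. Against it 3058 of 19329 loci (15.8%) were higher after 30 min and 1166 (6.03%) lower, so that 72.4% of the calls were higher in place of 45.4%, and the median over loci was 0.36. With the libraries scaled by the median ratio of loci, the numbers against 3 days were 1929 and 1825, and the median was -0.01.

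Of the 12 largest positive differences outside the dark range, among named loci at 10 FPKM or more and not at 0 in either of the 2 libraries, 4 belonged to jasmonate repression or synthesis and 3 to phenylpropanoid or flavonoid synthesis. CBL-interacting protein kinase 2 (ZS07g0577200), a kinase steered by calcium sensors, stood at 111 FPKM after 30 min, against 1.93 FPKM in the 5-day dark library (log2 difference 5.25). Its levels at 1 and 3 days of darkness were 62.1 and 84.3 FPKM, so among the dark libraries its 5-day value stood apart. After 60 min and 24 h of light it was at 97.3 and 3.90 FPKM, so the 24-h library was low too. Cytochrome P450 CYP73A100 (ZS02g0316000), of the family that holds cinnamate 4-hydroxylase, behaved otherwise: it stood at 50.9 FPKM after 30 min, against 0.922 at 5 days, 0.441 at 3 days and 0.0956 at 1 day of darkness (4.76). It stood at 5.68 FPKM after 60 min and 2.55 after 24 h.

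The late embryogenesis abundant protein Lea5-D (ZS01g0233800), of a family known from desiccation, stood at 215 FPKM after 30 min, against 9.25 FPKM at 5 days of darkness (4.40), and at 2.13 FPKM at 1 day. An omega-3 fatty acid desaturase of the endoplasmic reticulum (ZS03g0181800), which makes linolenic acid, stood at 199.8 FPKM after 30 min, against 13.8 FPKM at 5 days (3.77), and at 53.8 and 45.6 FPKM after 60 min and 24 h. Cortical cell-delineating protein (ZS03g0650800) stood at 57.4 FPKM after 30 min and 2.76 FPKM at 5 days, and was listed at 0 at 1 and 3 days. The C2H2 factor zinc finger protein 1 (ZS11g0268800) stood at 61.5 FPKM after 30 min, against 3.91 FPKM at 5 days (3.67), and was close to 7 FPKM after 60 min and 24 h, at 7.09 and 7.11. For Lea5-D and the desaturase the table carries the gene name on 2 rows, of which 1 is given.

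**Figure D2:**
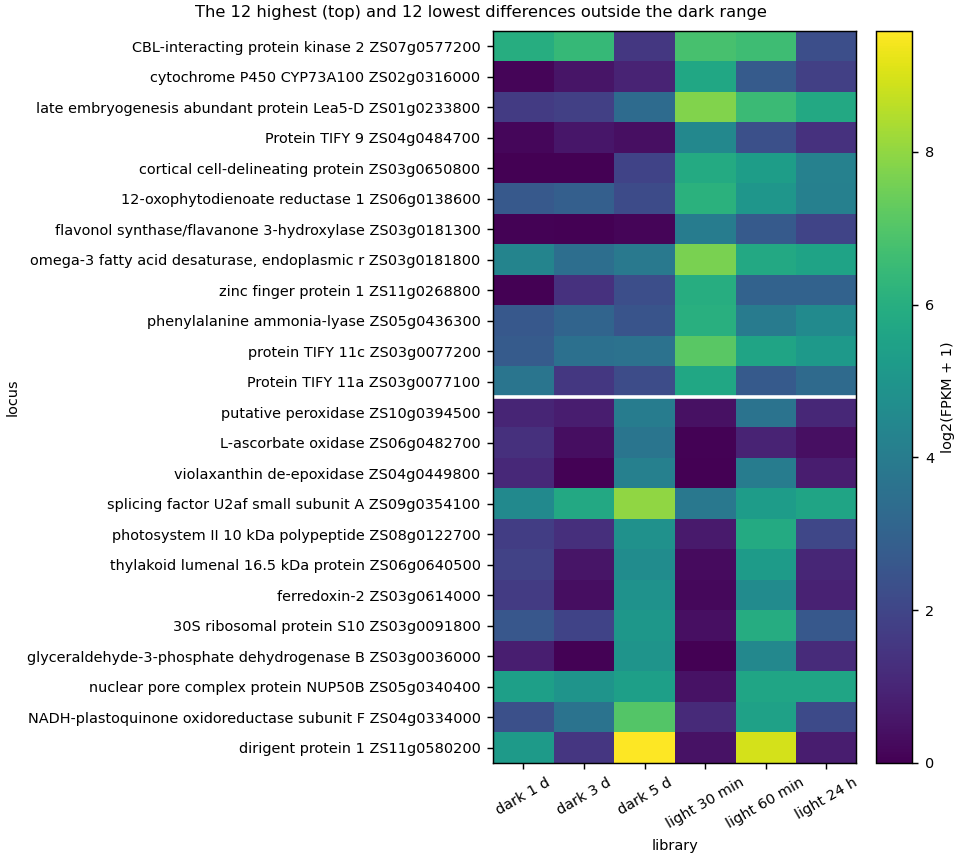
Colour gives log2(FPKM + 1) in each of the 6 libraries (columns, in order of darkness and then light) for the 12 highest differences (above the white line) and the 12 lowest, 30 min against 5-day dark, among named loci outside the dark range. In 11 of the upper 12 the 30-min library stands apart from low dark libraries, the exception being CBL-interacting protein kinase 2; most of the lower 12 are high at 5 days of darkness and at 60 min.

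Light receptors lay mostly below their 5-day dark level but near their 3-day one. Of 11 measured receptor loci none was higher and 1 was lower, with a median of -0.42. The lower one was phototropin-2 (ZS04g0337700), a blue-light receptor kinase of phototropism, at 3.79 FPKM after 30 min, against 18.3 FPKM at 5 days, 4.28 at 3 days and 0.758 at 1 day of darkness. The ultraviolet-B receptor UVR8 (ZS01g0700700) stood at 5.97 FPKM after 30 min and at 2.49 FPKM at 5 days, just under the threshold, and reached 8.89 FPKM after 60 min. Over the same 11 loci the median against 3 days of darkness was 0.18, below the 0.36 over all loci.

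Among 22 light signalling regulators, 2 were higher and 2 lower (median -0.12, and 0.40 for the same loci against 3 days of darkness). HY5 (ZS01g0075000), the bZIP factor that promotes light-grown development, stood at 8.57 FPKM after 30 min, against 2.26 FPKM at 5 days, 2.05 at 3 days and 3.75 at 1 day of darkness, and at 12.6 FPKM after 60 min. It exceeded all 3 dark libraries. SPA1-RELATED 4 (ZS01g0583900), a partner of COP1, stood at 12.8 FPKM after 30 min and at 9.57 FPKM at 5 days, within 2-fold. B-box factors, small zinc finger proteins that act beside HY5, went both ways, with 3 of 15 higher and 3 lower. Their median was -0.24, and 0.33 for the same loci against 3 days, where that over all loci was 0.36. CONSTANS-LIKE 3 (ZS08g0196900) stood at 10.1 FPKM after 30 min, against 1.40 FPKM at 5 days and at most 0.814 earlier (2.21). B-box protein 22 (ZS05g0122400) stood at 3.99 FPKM after 30 min, against 16.9 FPKM at 5 days and 11.4 at 3 days (-1.84), and at 1.18 FPKM after 24 h. A second locus of that name (ZS01g0107100) stood at 2.70 FPKM after 30 min and 8.77 FPKM at 5 days, close to its 3-day level of 2.60.

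Of 6 clock loci 1 was higher and none lower. GIGANTEA (ZS01g0082000) stood at 51.7 FPKM after 30 min and at 57.2 FPKM at 5 days, and pseudo-response regulator PRR1 (ZS02g0496600) at 7.70 and 15.8 FPKM, both within 2-fold. Adagio-like protein 3 (ZS11g0484900), a blue-light sensing F-box protein, stood at 12.6 FPKM after 30 min and 10.7 FPKM at 5 days, also within 2-fold.

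JAZ repressors were the list with the largest share of higher loci among those plotted. Of 11 measured loci, 8 were higher (72.7%, against 11.0% of all loci), all 8 of them above all 3 dark libraries, 1 was lower and the median was 1.82. TIFY 11c (ZS03g0077200) stood at 139 FPKM after 30 min, against 11.2 FPKM at 5 days of darkness, and at 47.4 and 35.6 FPKM after 60 min and 24 h. TIFY 10c (ZS09g0306500) stood at 90.2 FPKM after 30 min, against 13.2 FPKM at 5 days (2.68). TIFY 11e (ZS10g0303300), at 4.13 FPKM at 5 days, differed by 2.03. Both were higher after 30 min than in any other library.

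The most abundant member, TIFY 10b (ZS07g0522700), stood at 408 FPKM after 30 min, against 115 FPKM at 5 days (1.82), with 66.6 and 81.5 FPKM at 3 days and 1 day. TIFY 6b (ZS09g0266000) stood at 83.7 and 33.4 FPKM (1.30) and TIFY 3 (ZS04g0778900) at 157 and 62.0 FPKM (1.33), after 30 min and at 5 days. TIFY 6a (ZS08g0486200), at 77.9 and 39.7 FPKM, lay just within 2-fold. For TIFY 11b (ZS03g0077250), the one called lower, the 30-min library gave 0 FPKM and the other 5 libraries between 14.2 and 65.7 FPKM. Its gene number follows those of TIFY 11a and 11c, and reads of such close copies may be split unevenly. The median level of the 11 loci was 77.9 FPKM after 30 min, against 13.2 FPKM at 5 days, and 47.4 and 25.4 FPKM after 60 min and 24 h. Against 3 days of darkness the median difference of the same loci was 2.60.

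The list of jasmonate synthesis enzymes and lipoxygenases, which also holds lipoxygenases outside the jasmonate route, had 6 of 12 loci higher, all 6 above all dark libraries, and 2 lower (median 1.05, and 1.35 for the same loci against 3 days). A pair of loci annotated as 12-oxophytodienoate reductase 1, of the enzyme family that reduces the cyclic jasmonate precursor, were among them. ZS06g0138600 stood at 67.8 FPKM after 30 min, against 3.60 FPKM at 5 days and at most 6.49 FPKM earlier (3.90), and ZS06g0139000 at 14.5 FPKM after 30 min, against 2.61 FPKM at 5 days (2.10). Reductase 7 (ZS08g0538200), the peroxisomal form that serves jasmonate synthesis in rice, stood at 69.4 FPKM after 30 min, against 30.4 FPKM at 5 days (1.16). Putative lipoxygenase 5 (ZS04g0546200) stood at 13.6 FPKM after 30 min and 2.86 FPKM at 5 days (1.92). Lipoxygenase 4, a linoleate 9S-lipoxygenase (ZS03g0633300) and so of the branch that does not lead to jasmonate, stood at 28.5 and 8.29 FPKM (1.67). Allene oxide synthase 1 (ZS03g0714600), the step after the 13-lipoxygenases, stood at 48.8 FPKM after 30 min and was listed at 0 at 5 days. Its 3-day and 1-day dark levels were 4.13 and 23.5 FPKM.

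**Figure D3:**
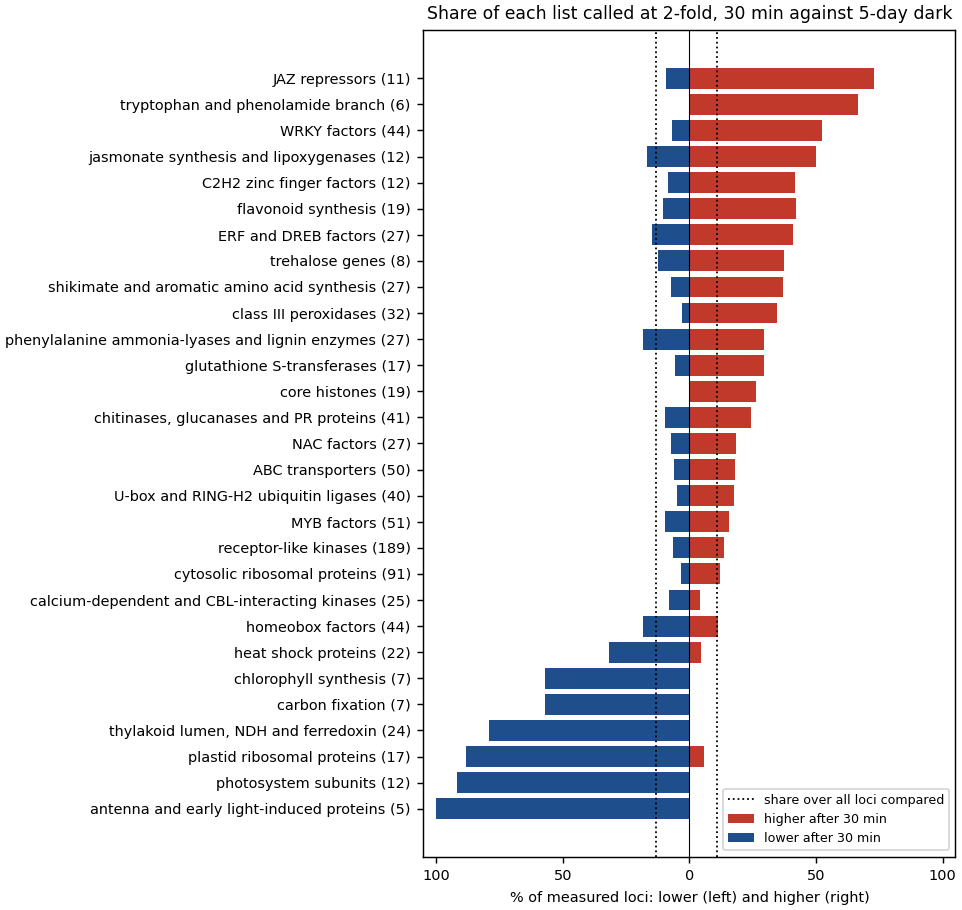
Bars give, for each list (number of measured loci in brackets), the percentage of loci called lower (left, blue) and higher (right, red) after 30 min of light against 5-day darkness; dotted lines mark 11.0% higher and 13.2% lower over all loci. JAZ repressors reach 72.7% higher, photosystem subunits 91.7% lower.

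Regulatory proteins upstream of transcription had smaller shares of called loci as families. Of 189 receptor-like kinases 26 were higher (13.8%) and 12 lower, with a median of 0.21, a share near that of all loci. The LRR receptor kinase ZS05g0176900 stood at 54.3 FPKM after 30 min, against 6.67 FPKM at 5 days and at most 11.4 earlier (2.85). The HERK 1 receptor kinase (ZS06g0284600), of a family tied to cell elongation in Arabidopsis, stood at 9.31 FPKM after 30 min and at 0.0618 FPKM at 5 days, but at 15.2 and 3.34 FPKM at 1 and 3 days. Among 25 calcium-dependent and CBL-interacting kinases 1 was higher and 2 lower. CBL-interacting protein kinase 31 (ZS03g0212800) stood at 37.0 FPKM after 30 min and 108 FPKM at 5 days (-1.52). It was at 60.8 and 34.7 FPKM at 1 and 3 days, so the 30-min value lay within the dark range.

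Of 15 calmodulin-type loci 3 were higher and 3 lower, with CML27 (ZS03g0222400), a calcium-binding protein, at 39.3 FPKM after 30 min, against 15.2 FPKM at 5 days (1.31). Calmodulin-like protein 1 (ZS01g0669600) stood at 17.6 and 59.6 FPKM (-1.70), within a dark range that began at 8.66 FPKM at 1 day and 25.8 at 3 days. Of 10 MAP kinase loci 2 were higher: MAP kinase 4 (ZS06g0634600) at 45.0 FPKM after 30 min, against 10.1 FPKM at 5 days and 30.6 at 3 days (2.06), and the kinase NPK1 (ZS09g0237300) at 11.3 and 4.11 FPKM (1.27). NADPH oxidases, which release superoxide at the cell surface, had 2 of 7 higher. RBOH B (ZS01g0289000), whose name stands on 2 rows, was at 62.3 FPKM after 30 min, against 26.2 FPKM at 5 days (1.22).

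U-box and RING-H2 ubiquitin ligases, many of which are induced by elicitors, had 7 of 40 higher (17.5%) and 2 lower. U-box protein 21 (ZS06g0167900) stood at 6.90 FPKM after 30 min, against 1.26 FPKM at 5 days (1.80), and ATL80 (ZS02g0570800, on 2 rows) at 18.1 and 4.91 FPKM (1.69). Protein phosphatases 2C, which act in abscisic acid and stress signalling among other roles, had 2 of 35 higher and none lower (median 0.41). Of 9 AAA-ATPase loci of the At3g28580 kind, a list added after the table was opened, 3 were higher and 1 lower. ZS07g0113000 stood at 30.4 FPKM after 30 min, against 2.46 FPKM at 5 days and at most 1.96 FPKM earlier (3.18).

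WRKY factors, regulators of defence and stress genes, were the large transcription factor family with the highest share of called loci, 23 of 44 higher (52.3%) and 3 lower, with 22 above all dark libraries and a median of 1.16. WRKY28 (ZS06g0572300) stood at 75.7 FPKM after 30 min, against 7.02 FPKM at 5 days, 2.49 at 3 days and 4.18 at 1 day of darkness (3.26). It stood at 4.92 FPKM after 60 min. WRKY 33 (ZS01g0683400), whose Arabidopsis namesake controls defence against fungi, stood at 22.0 FPKM after 30 min, against 3.69 FPKM at 5 days and at most 0.362 earlier (2.30). WRKY 40 (ZS09g0278300) stood at 5.81 FPKM after 30 min and 0.110 FPKM at 5 days (2.62), and was listed at 0 at 1 and 3 days. Against 3 days of darkness the median of the 44 loci was 1.23.

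Ethylene response and DREB factors had 11 of 27 higher (40.7%), all 11 above all dark libraries, and 4 lower (median 0.39, and 0.78 against 3 days). ABR1 (ZS01g0719700, on 2 rows) stood at 8.66 FPKM after 30 min, against 0.660 FPKM at 5 days (2.54). The AP2 factor TOE (ZS05g0027300) stood at 156 FPKM after 30 min, against 58.6 FPKM at 5 days (1.40), and an AINTEGUMENTA-like factor (ZS06g0580200), of a group that promotes organ growth, at 6.33 and 1.09 FPKM (1.81). DREB1E (ZS04g0677600), of the cold-response group, went the other way, at 0.605 FPKM after 30 min, against 10.5 FPKM at 5 days and 12.2 at 3 days (-2.84). It was listed at 0 at 1 day of darkness and so lay within the dark range.

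Of 12 C2H2 zinc finger factors 5 were higher and 1 lower, among them ZAT12 (ZS05g0021000), a factor of oxidative stress, at 20.5 FPKM after 30 min, against 6.25 FPKM at 5 days (1.57). NAC factors had 5 of 27 higher (18.5%), all above the dark range, and 2 lower. NAC 67 (ZS07g0152100) stood at 36.5 FPKM after 30 min, against 14.9 FPKM at 5 days (1.24), and NAC 21/22 (ZS08g0123100), whose Arabidopsis namesake acts in auxin signalling, at 9.03 and 25.6 FPKM (-1.41). At 1 and 3 days of darkness NAC 21/22 was at 1.96 and 7.06 FPKM, so its 30-min value lay within the dark range. MYB factors had 8 of 51 higher (15.7%) and 5 lower. Against 3 days the medians were 0.63 for NAC and 0.45 for MYB factors, where that over all loci was 0.36. Against 5 days they were 0.24 and 0.34. Myb4 (ZS04g0630600), whose relatives repress phenylpropanoid genes, stood at 92.9 FPKM after 30 min, against 30.1 FPKM at 5 days (1.59). Of 29 bHLH factors 5 were higher and 1 lower (median 0.00), and none of 12 bZIP factors of that list was called.

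Homeobox factors had 5 of 44 higher and 8 lower (18.2%, against 13.2% of all loci), with a median of -0.13. Against 3 days of darkness 6 of 43 were higher and 1 lower, where 15.8% and 6.03% of all loci were. The median of the same loci was then 0.20, below the 0.36 over all loci. The 2 named members with the largest differences were both lower. HOX6 (ZS09g0387200), a homeodomain-leucine zipper factor, stood at 6.31 FPKM after 30 min, against 31.8 FPKM at 5 days, 24.5 at 3 days and 12.1 at 1 day of darkness (-2.17). A locus annotated as even-skipped homolog 2 (ZS01g0076200) stood at 7.65 FPKM after 30 min and 28.0 FPKM at 5 days (-1.75). It was at 15.7 FPKM at 3 days and listed at 0 at 1 day, so it lay within the dark range. Heat stress factors had 0 of 8 higher and 1 lower (median -0.38, and 0.09 against 3 days, also below the 0.36 over all loci).

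Enzymes that break down or conjugate a hormone were among the called auxin, cytokinin and gibberellin loci. The auxin-conjugating enzymes GH3.8 (ZS07g0491000) and GH3.2 (ZS01g0628200) stood at 12.2 and 5.92 FPKM after 30 min, against 2.17 and 1.64 FPKM at 5 days (2.05 and 1.39). Of the 21 early auxin loci 5 were higher (23.8%, against 11.0% of all loci) and 2 lower (9.52%, against 13.2%). SAUR71 (ZS02g0073000), of a family that promotes cell expansion, stood at 1.58 FPKM after 30 min and 8.70 FPKM at 5 days (-1.91). Auxin response factor 5 (ZS02g0048800) stood at 5.08 and 15.1 FPKM (-1.40).

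Cytokinin loci had 3 of 22 higher and 3 lower, 13.6% each way, near the 11.0% and 13.2% of all loci. Cytokinin dehydrogenases, which degrade the hormone, differed among themselves: number 5 (ZS01g0636900) stood at 10.5 FPKM after 30 min, against 0.708 FPKM at 5 days (2.75), number 4 (ZS01g0786700) at 11.9 and 3.27 FPKM (1.60), and number 11 (ZS08g0539300) at 3.67 and 15.1 FPKM (-1.79). A riboside phosphohydrolase of the LOG kind (ZS04g0632000), which releases active cytokinin, stood at 1.19 and 5.32 FPKM (-1.53). Of 7 gibberellin enzymes 1 was higher and 1 lower, 14.3% each way and so also near the shares of all loci. A gibberellin 2-beta-dioxygenase (ZS01g0620700), which inactivates gibberellin, exceeded all dark libraries at 14.6 FPKM after 30 min, against 0.690 FPKM at 5 days (3.21). Gibberellin 20 oxidase 1 (ZS03g0824300), which makes the precursors of active gibberellins, was at 4.29 FPKM after 30 min, against 21.1 FPKM at 5 days and 6.17 at 3 days (-2.06), within the dark range. An aminocyclopropane carboxylate oxidase (ZS05g0056600), the last step of ethylene synthesis, stood at 30.8 FPKM after 30 min, against 2.29 FPKM at 5 days and at most 0.355 earlier (3.27). The other 6 measured ethylene loci lay within 2-fold.

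The route from primary metabolism to aromatic compounds was higher at several entry points. Of 27 loci of shikimate and aromatic amino acid synthesis, a list added after the table was opened, 10 were higher (37.0%), 9 of them above all dark libraries, and 2 lower (median 0.49). A DAHP synthase (ZS07g0529000), which opens the shikimate pathway, stood at 298 FPKM after 30 min, against 66.5 FPKM at 5 days, 67.3 at 3 days and 69.2 at 1 day of darkness (2.15). It was at 41.8 FPKM after 60 min and 126 after 24 h. The next enzyme, 3-dehydroquinate synthase (ZS09g0397100), stood at 73.2 FPKM after 30 min, against 24.7 FPKM at 5 days (1.53), and shikimate kinase 2 (ZS06g0147900) at 18.2 and 3.02 FPKM (2.25). The 3 dark levels of both enzymes lay close together, between 24.7 and 31.4 FPKM and between 3.02 and 5.14 FPKM.

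In the tryptophan and phenolamide branch 4 of 6 loci were higher and none lower (median 1.22). Anthranilate synthase component I (ZS03g0159600) stood at 45.0 FPKM after 30 min, with a difference of 1.28 to 5 days. An aromatic amino acid decarboxylase (ZS08g0044200), the step to tryptamine or tyramine, stood at 8.17 FPKM after 30 min, against 0.0553 FPKM at 5 days (3.12), and was listed at 0 before. S-adenosylmethionine synthase 2 (ZS01g0242000, on 3 rows), which makes the methyl donor, stood at 654 FPKM after 30 min, against 297 FPKM at 5 days (1.14), and this was one of the 6 largest gains in FPKM among named loci.

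Phenylpropanoid enzymes were divided. Of 27 loci of phenylalanine ammonia-lyase and lignin synthesis 8 were higher (29.6%) and 5 lower (18.5%), with a median of 0.53. For the same loci against 3 days it was -0.04, where the median over all loci was 0.36. The ammonia-lyase ZS05g0436300, the entry enzyme, stood at 64.5 FPKM after 30 min, against 4.62 FPKM at 5 days, 7.45 at 3 days and 5.20 at 1 day of darkness (3.54). The far more abundant ammonia-lyase ZS02g0502200 stood at 640 FPKM after 30 min, against 1367 FPKM at 5 days (-1.09), within the range of 167 to 1367 FPKM in darkness. A 4-coumarate ligase-like locus (ZS03g0038000) stood at 32.5 and 6.88 FPKM (2.09), cinnamoyl-CoA reductase 2 (ZS09g0041500) at 14.3 and 2.62 FPKM (2.08), and cinnamyl alcohol dehydrogenase 8C (ZS09g0264800) at 0.132 and 10.3 FPKM (-3.32). None of 8 laccases, which polymerise lignin, was called. Class III peroxidases had 11 of 32 higher (34.4%) and 1 lower, with peroxidase 12 (ZS04g0811200) at 19.6 and 2.49 FPKM (2.56). Their median was 0.54 against 5 days and 0.13 against 3 days, the latter below the 0.36 over all loci.

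Flavonoid synthesis had 8 of 19 higher (42.1%) and 2 lower, with a median of 0.44. Against 3 days it was 0.23, below the 0.36 over all loci. A pair of loci annotated as flavonol synthase/flavanone 3-hydroxylase led: ZS10g0432400 stood at 81.4 FPKM after 30 min, against 9.06 FPKM at 5 days and at most 16.4 earlier (3.03), and ZS03g0181300 at 15.1 FPKM, against 0.105 FPKM (3.87). Chalcone synthase 1 (ZS11g0462200), the first committed enzyme of the pathway, stood below all dark libraries, at 2.19 FPKM after 30 min, against 25.4 FPKM at 5 days and 4.23 at 3 days (-3.05). By the pathways that the deposited table assigns, among 114 with at least 20 measured loci, stilbenoid, diarylheptanoid and gingerol biosynthesis had the largest share of higher loci (14 of 45, 31.1%). Flavonoid biosynthesis had 17 of 67 (25.4%).

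Transport and conjugation of small molecules followed. ABC transporters had 9 of 50 higher, all 9 above all dark libraries, and 3 lower (median 0.38, and 0.60 against 3 days). ABCG37 (ZS01g0480700) stood at 56.1 FPKM after 30 min, against 5.30 FPKM at 5 days and at most 8.63 earlier (3.18), and ABCG44 (ZS08g0449800), like it a full-size transporter of the pleiotropic drug resistance group, at 31.4 and 2.23 FPKM (3.32). ABCB8 (ZS01g0583000) stood at 30.1 and 3.17 FPKM (2.90), whereas ABCB20 (ZS03g0173800) stood at 0.0770 and 12.9 FPKM (-3.69), with at most 0.0155 FPKM at 1 and 3 days. Glutathione S-transferases, which couple glutathione to reactive compounds, had 5 of 17 higher and 1 lower (median 0.88). Their 4 leading loci lay between 5.66 and 38.3 FPKM after 30 min, against 1.39 to 12.1 FPKM at 5 days. Glycosyltransferases had 8 of 41 higher (19.5%) and 4 lower, with a locus annotated as crocetin glucosyltransferase 2 (ZS09g0373400) at 118 FPKM after 30 min, against 26.3 FPKM at 5 days (2.12).

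Defence proteins differed in both directions by large amounts. Of 41 chitinases, glucanases and pathogenesis-related proteins 10 were higher (24.4%) and 4 lower. The glucanase GII (ZS01g0571800) stood at 14.4 FPKM after 30 min, against 1.54 FPKM at 5 days (2.60). Chitinase 4 (ZS04g0602700), chitinase 5 (ZS04g0603200) and PR1c (ZS01g0319800) stood at 0.181, 0.343 and 0.111 FPKM after 30 min, against 51.1, 39.2 and 30.4 FPKM at 5 days. At 1 and 3 days of darkness none of these 3 exceeded 0.423 FPKM, so that their high level was in the 5-day dark library. Of 8 LEA loci 4 were higher and 1 lower, all 4 above the dark range. A group 3 LEA protein (ZS01g0565700) stood at 8.33 FPKM after 30 min, against 0.596 FPKM at 5 days, and reached 69.6 FPKM after 24 h.

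Starch and sucrose loci had few calls, trehalose loci more. Cytosolic invertase 1 (ZS02g0421900), which splits sucrose, stood at 50.8 FPKM after 30 min, against 10.1 FPKM at 5 days (2.22), and beta-fructofuranosidase 1 (ZS04g0646100), also an invertase and at 2.32 FPKM at 5 days, differed by 2.52. Of the 23 starch and sucrose loci 3 were higher and none lower. Sugar transport protein 13 (ZS03g0110400), a hexose importer, stood at 22.2 FPKM after 30 min, against 1.23 FPKM at 5 days and at most 0.549 earlier (3.38), and reached 36.4 FPKM after 24 h. Trehalose loci, whose phosphate product signals sucrose status, had 3 of 8 higher (37.5%), all 3 above the dark range, and 1 lower (median 0.81, and 0.70 against 3 days). Trehalose-phosphate phosphatase 9 (ZS03g0297000) stood at 16.0 and 3.63 FPKM (1.88).

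Ion and nitrogen transport held similar single cases. Potassium transporter 1 (ZS04g0487900) stood at 31.3 FPKM after 30 min, against 10.1 FPKM at 5 days (1.54), and ammonium transporter 1;1 (ZS04g0624800) at 26.5 and 7.09 FPKM (1.76). Of 34 nitrate, phosphate and sulfate loci 5 were higher (14.7%) and 2 lower. Among 17 aquaporins 3 were higher and 1 lower. The lower one, PIP2-7 (ZS09g0398300), stood at 0.0656 FPKM after 30 min, against 64.9 FPKM at 5 days and no more than 0.268 FPKM in any other library. SIP1-1 (ZS01g0081600) stood at 37.2 and 9.21 FPKM (1.90).

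Cell wall lists differed among themselves. Expansins, which loosen walls during elongation, had 5 of 24 higher (20.8%), 2 of them above the dark range, and 1 lower. Their median was 0.60, and 0.39 against 3 days, near the 0.36 over all loci. Expansin-B4 (ZS10g0448400) stood at 50.6 FPKM after 30 min, against 22.9 FPKM at 5 days, 18.1 at 3 days and 203 at 1 day of darkness. Cellulose synthases had 3 of 8 higher (median 0.69, and 0.27 against 3 days, below the 0.36 over all loci). CESA6 (ZS07g0191200, on 2 rows), a primary wall subunit, stood at 92.8 FPKM after 30 min, against 18.4 FPKM at 5 days and 169 at 1 day (2.28). Of 9 xyloglucan endotransglucosylases none was higher and 1 was lower (median 0.09). Arabinogalactan and proline-rich wall proteins had 5 of 36 higher and 4 lower, with 18 positive and 18 negative differences. Pectinesterase 41 (ZS01g0231600) stood above all dark libraries at 13.6 FPKM after 30 min, against 1.56 FPKM at 5 days (2.51). Enzymes of very long fatty acids, precursors of wax, included 3-ketoacyl-CoA synthase 4 (ZS05g0585000) at 43.7 and 4.97 FPKM (2.91), while the wax and cuticle list as a whole had 7 of 53 higher and 8 lower.

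Growth and division loci showed small shifts shared by most members. Of 91 cytosolic ribosomal proteins 83 had a positive difference, 11 were called higher (12.1%, near the share of all loci) and 3 lower, with a median of 0.66. The median level of these 91 loci was 126 FPKM after 30 min, against 83.7 FPKM at 5 days, 73.0 at 3 days and 166 at 1 day. Ribosomal protein L6-3 (ZS02g0462700) stood at 179 FPKM after 30 min, against 47.5 FPKM at 5 days (1.89). Core histones had 5 of 19 higher and none lower (0.72), 2 of them above the dark range. Among kinesins, motors many of which act in division, 4 of 32 were higher and none lower (0.64), and 26 had a positive difference. Their 4 called loci stood between 7.78 and 9.81 FPKM after 30 min, against 2.92 to 4.06 FPKM at 5 days and 12.5 to 14.7 FPKM at 1 day of darkness.

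Proteasome subunits had 2 of 26 higher, none lower and a median of 0.42, and cell cycle loci 3 of 31 higher and 1 lower (0.31). Cyclin-dependent kinase B2-1 (ZS08g0604500) stood at 18.6 FPKM after 30 min, against 8.43 FPKM at 5 days (1.05). Against 3 days of darkness, where the median over all loci was 0.36, the medians were 0.86 for ribosomal proteins, 1.13 for histones, 0.85 for kinesins and 0.48 for proteasome subunits.

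**Figure D4:**
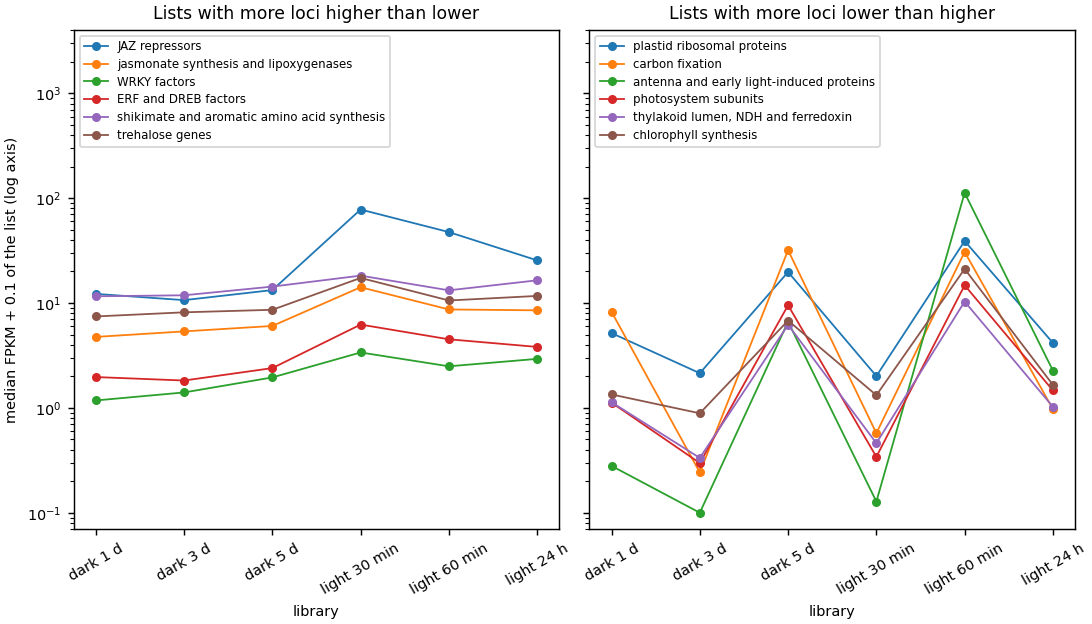
Lines join the median FPKM + 0.1 (log axis) of the measured loci of each list across the 6 libraries, dark times first and then light times. The JAZ median is highest after 30 min (77.9 FPKM, against 13.2 FPKM at 5 days of darkness), while the chloroplast lists are high at 5 days of darkness and after 60 min.

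Chloroplast loci made the clearest group on the lower side. Of 548 loci whose product name contains chloroplast, 192 were lower (35.0%) and 31 higher (5.66%), and 59 of the lower ones (10.8% of the 548) lay below all dark libraries. Among the other 20004 loci 12.6% were lower and 11.1% higher. Products named mitochondrial, taken as another organelle list, had 11 of 247 lower (4.45%) and 19 higher. Both name lists were added after the table was opened. By the deposited pathways, photosynthesis had 33 of 51 loci lower (64.7%), the largest share among the 114. Against 3 days of darkness 53 of 462 chloroplast-named loci were higher and 15 lower, where 15.8% and 6.03% of all loci were. The median of the same 548 loci was -0.43 against 5 days. It was 0.29 against 3 days, where the median over all loci was 0.36.

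Plastid ribosomal proteins, which build the organelle's own ribosomes, had 15 of 17 lower (88.2%), 7 of them below all dark libraries, and 1 higher (median -2.91). Protein S10 (ZS03g0091800, on 2 rows) stood at 0.311 FPKM after 30 min, against 32.9 FPKM at 5 days, 2.79 at 3 days and 5.07 at 1 day of darkness (-4.69). S9 (ZS03g0715800) stood at 2.46 FPKM after 30 min, against 33.3 FPKM at 5 days and 1.83 at 3 days (-3.31), and at 85.9 FPKM after 60 min. L6 (ZS03g0693900) stood at 0.0686 and 24.9 FPKM, with 0.0596 FPKM at 3 days. In each of these 3 loci the 5-day dark and 60-min libraries were the high ones.

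Photosystem subunits were lower at 11 of 12 loci (91.7%), 3 of them below all dark libraries (median -2.47). The photosystem II 10 kDa polypeptide (ZS08g0122700) stood at 0.606 FPKM after 30 min, against 27.9 FPKM at 5 days and 1.45 at 3 days (-4.17). Photosystem I subunit III (ZS03g0723800) stood at 0.148 and 26.1 FPKM, with 0.0473 FPKM at 3 days and 51.6 FPKM after 60 min. All 5 measured antenna loci were lower, none below the dark range. In carbon fixation 4 of 7 were lower and none higher; the B subunit of the plastid glyceraldehyde-3-phosphate dehydrogenase (ZS03g0036000) stood at 0.0171 FPKM after 30 min, against 30.0 FPKM at 5 days and 0.0295 at 3 days (-4.93). Its plastid relative of glycolysis, GAPCP1 (ZS02g0076700), differed the other way at 60.0 and 31.8 FPKM, within 2-fold.

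Of 24 loci of the thylakoid lumen, the NDH complex and ferredoxins, a list added after the table was opened, 19 were lower (79.2%), 6 below all dark libraries, and none higher. NDH subunit F (ZS04g0334000), a product annotated to the chloroplast, stood at 1.19 FPKM after 30 min, against 129 FPKM at 5 days, 11.7 at 3 days and 4.10 at 1 day of darkness (-5.89). Violaxanthin de-epoxidase (ZS04g0449800), which turns on heat dissipation in strong light, stood at 0.0238 FPKM after 30 min, against 17.1 FPKM at 5 days and 0.0415 at 3 days (-4.14). Chlorophyll synthesis had 4 of 7 lower and none higher, with the magnesium-protoporphyrin cyclase (ZS01g0189000) at 0.561 FPKM after 30 min, against 16.2 FPKM at 5 days and 0.434 at 3 days.

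Against 3 days of darkness the medians of the same loci were -0.00 for plastid ribosomal proteins, 0.09 for photosystem subunits, 0.04 for antenna proteins, 0.27 for carbon fixation, 0.22 for chlorophyll synthesis and 0.13 for the thylakoid list. These medians lay far nearer 0 than those against 5 days, and all were below the 0.36 over all loci. Single loci such as NDH subunit F and S10 were lower after 30 min than at 3 days too. The levels of these lists moved with those of the green tissue markers given above. The green tissue list takes loci by product names that the antenna, photosystem and carbon fixation lists also use. For those lists the shared movement is thus partly given by construction.

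**Figure D5:**
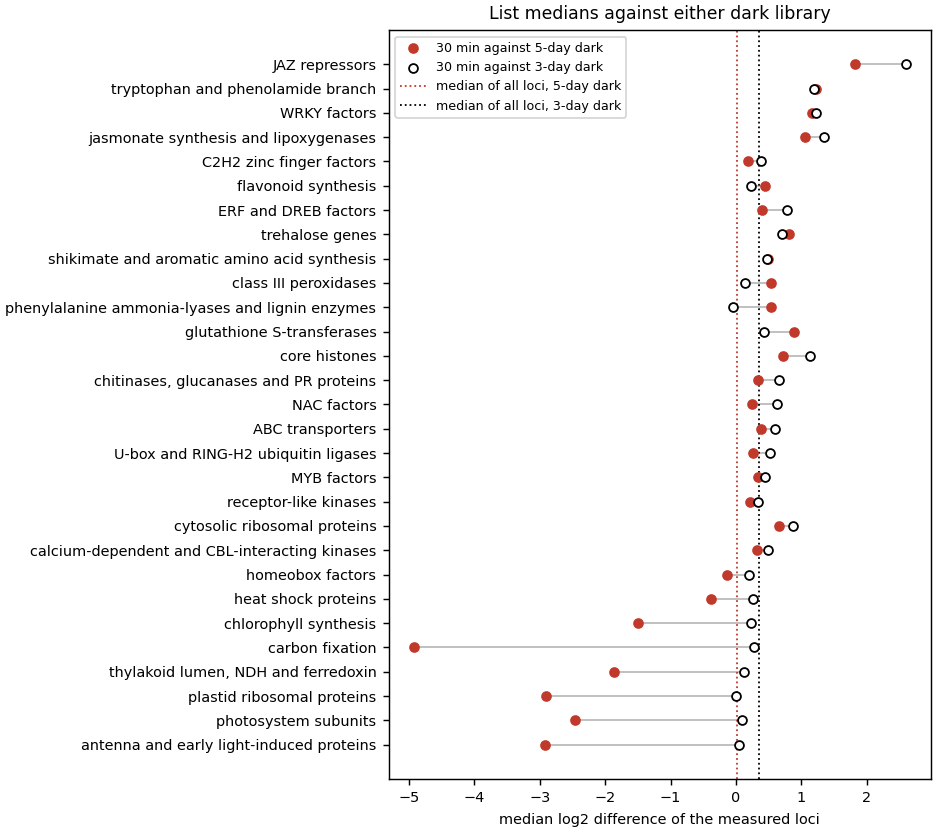
Points give the median log2 difference of each list after 30 min of light against the 5-day dark library (red) and, over the same loci, against the 3-day dark library (open); dotted lines mark the medians of all loci, 0.01 and 0.36. JAZ repressors are at 1.82 and 2.60, WRKY factors at 1.16 and 1.23, and plastid ribosomal proteins at -2.91 and -0.00.

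Heat shock proteins had 7 of 22 lower (31.8%) and 1 higher (median -0.39, and 0.25 against 3 days, below the 0.36 over all loci). The chloroplast chaperones HSP90-5 (ZS09g0339300) and stromal HSP70 (ZS05g0259100) stood at 23.0 and 18.1 FPKM after 30 min, against 57.3 and 45.0 FPKM at 5 days. The higher member, heat shock cognate 70 kDa protein 2 (ZS03g0170300), stood at 136 FPKM after 30 min, against 52.7 FPKM at 5 days and at most 69.6 earlier (1.35). Iron superoxide dismutase 1 of the chloroplast (ZS06g0022800) stood at 2.90 and 26.3 FPKM (-2.81).

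Some of the lowest differences lay outside the chloroplast lists. Dirigent protein 1 (ZS11g0580200), of a family that guides lignan coupling, had the lowest difference among the loci named here: it stood at 0.401 FPKM after 30 min, against 764 FPKM at 5 days, 1.86 at 3 days and 36.6 at 1 day of darkness (-9.09), and at 503 and 0.689 FPKM after 60 min and 24 h. The nuclear pore protein NUP50B (ZS05g0340400) stood at 0.379 FPKM after 30 min, against 41.7 FPKM at 5 days, and between 30.1 and 49.0 FPKM in each of the other 4 libraries. The splicing factor U2af small subunit A (ZS09g0354100) stood at 13.1 FPKM after 30 min, against 251 FPKM at 5 days and between 22.2 and 53.5 FPKM in the other 4 libraries (-4.16). Unlike the chloroplast loci, NUP50B was low in no other library, and whether its 30-min value is a failed estimate was not tested.

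Where 1 of the 2 libraries gave 0 and the other had at least 20 FPKM, 31 loci were at 0 after 30 min and 12 at 5 days of darkness. Flowering-promoting factor 1-like protein 2 (ZS01g0780800) was listed at 0 after 30 min, and stood at 255 FPKM at 5 days, 127 at 3 days and 60.7 after 60 min. DOF5.4 (ZS07g0420900) stood at 31.0 FPKM after 30 min and was listed at 0 at 5 days. Ribosomal protein L26-1 (ZS11g0051300), used by every cell, stood at 69.7 FPKM after 30 min and was listed at 0 at 5 days, so such a 0 need not be absence. In all, 9 loci were at 0 after 30 min and at 10 FPKM or more in each of the other 5 libraries, and 4 were so at 5 days.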

How the data were processed

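Poly(A) RNA of mesocotyls was sequenced as paired ends, 1 library per condition, per the labels' protocols. The authors deposited FPKM values per locus, per the file headers; for these rice values the aligner and counter were not given in the labels. Bowtie 0.12.2 appears in the submitters' processing notes, as does mm8, which is a mouse genome build, both without a stated role. The deposited p-value and q-value columns, per the file headers, name no comparison and were not used. Of 35500 loci, 730 merge several gene names and were left out of all lists. The number of gene names that matched the reference table of assembly ASM3414082v1 was 0, so no coordinates or sequences are printed.

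Differences are log2 with a pseudocount of 1, which understates changes of low loci. Read depth is unknown: among low loci of 1 transcript the most common ratio of 30 min to 5-day dark was 0.955, but 2.81% of 1105 loci lay within 0.3% of it, so no counting interval is given. Background shares are over all loci compared.

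The comparison, its members and the 79 lists (73 gene lists and 6 marker lists, by product name) were chosen with earlier results of these data known. After the table was opened, 6 lists were added and false matches of product names were removed. Named loci are the 12 highest and 12 lowest outside the dark range (at least 10 FPKM, not 0 in either library), up to 4 per list by size (at least 5 FPKM, likewise), members with a known role, the 6 largest gains and losses in FPKM, and up to 4 loci at 0 in either library, plus some added after their values were seen; from these the text gives a selection. A gene name can stand on 2 or more rows, as stated where it does. The calling code recovered 100 of 100 loci simulated as 4-fold higher and 100 of 100 as 4-fold lower among 11081 loci. These were loci at 5 FPKM or more in the 5-day dark library, given a small random spread and no zeros. Recovery was therefore close to certain, and it checks the code, not the spread of real libraries. Python 3.11.15, pandas 2.3.3 and matplotlib 3.10.9 were used.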

Additional observations from a re-analysis of the deposited data

How the results depend on the processing

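No paired analysis was possible because each group has 1 library. The numbers of loci higher, lower, above all dark libraries and below all dark libraries stayed within 1.5 times of 2257, 2717, 1780 and 866 with a pseudocount of 0.1, with no filter, under the 3 scalings, without loci at 0 and without merged loci. With a pseudocount of 5 they were 711, 854, 562 and 322; with at least 1 FPKM in both libraries 1203, 1118, 872 and 353; and with at least 5 FPKM in either 1281, 1389, 941 and 474. At a 2-fold margin to the dark range, 1088 above and 182 below became 295 and 56, 477 and 59, and 537 and 116 under these 3 settings, and those below became 431 with a pseudocount of 0.1 and 99 without loci at 0. Without the 5-day dark library, an alternative chosen after seeing the data, they were 1788 and 320. The loci lower were 1166 with the 3-day dark library as control and 1013 with the mean of the 3 dark libraries, by construction where a locus was high only at 5 days.

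Against the 3-day dark library, with its own filter, the medians of photosystem subunits (0.15), carbon fixation (0.48), chlorophyll synthesis (0.31) and the thylakoid list (0.45) turned positive. They rested on 5, 3, 4 and 7 measured loci. The median over all loci there was 0.36, or -0.01 with the libraries scaled by the median ratio of loci. With at least 1 FPKM in both libraries the median of carbon fixation also turned positive (0.76). Of the other comparisons of list medians with alternatives, 936 moved by less than 0.5 and 77 by more. All 85 medians stayed within 0.5 under each of the 3 scalings. Against 3 days 17 of the other medians moved by more and 63 by less. A change of sign was counted apart only for medians of at least 1 in size, and some smaller ones changed sign too. Against 3 days light receptors went from -0.42 to 0.18 and heat shock proteins from -0.39 to 0.25. Tubulins went from 0.55 to -0.19 and aquaporins from 0.29 to -0.27. Of those of single named loci, 1575 moved by less than 0.5 and 252 by more. All 357 loci stayed within 0.5 under each of the 3 scalings, which multiply a whole library by 1 factor. With a pseudocount of 5, 144 moved by more and 213 did not. Other controls were tried for the 12 highest and 12 lowest, where measured there. Against 3 days 12 moved by more and 6 did not, and against the mean of the 3 dark libraries 15 and 9. None of the called ones changed sign. For loci chosen outside the dark range this was fixed by the choice, and a pseudocount cannot turn a sign. Depth is unknown, and with 1 library per condition biological spread cannot be measured.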

Other observations

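Some of the largest differences fell on loci without an informative product name, chosen here after their values were seen. ZS10g0088600 stood at 14.0 FPKM after 30 min of light, against 2544 FPKM at 5 days of darkness, 308 at 3 days, 45.9 at 1 day, 667 after 60 min and 64.3 after 24 h. ZS09g0068200, whose product name refers to the chloroplast and the mitochondrion, stood at 13.2 FPKM after 30 min, against 1717 FPKM at 5 days, 199 at 3 days, 40.5 at 1 day and 537 after 60 min. ZS01g0088500 stood at 15.1 FPKM after 30 min, against 1513 FPKM at 5 days, and ZS05g0248100 at 4.90 and 468 FPKM, both highest at 5 days and next highest after 60 min. The 4 loci thus had the same order of the 2 highest libraries as NDH subunit F (ZS04g0334000).

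ZS07g0251600 had the highest difference of all loci, which rests on a 0 at 5 days of darkness. It stood at 7428 FPKM after 30 min of light, 2.08% of that library's FPKM, and at 5418 FPKM at 1 day of darkness, and was listed at 0 in the 5-day dark and the other 3 libraries. Its neighbour by gene number, ZS07g0251700, is the locus that held 14.9% of the 3-day dark library.

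Metallothioneins, small metal-binding proteins, held 4 of the 12 largest changes in FPKM among named loci. Metallothionein 4C (ZS12g0448700) stood at 2910 FPKM after 30 min, against 1876 FPKM at 5 days, and 4A (ZS12g0448300) at 760 and 262 FPKM. The metallothionein ZS05g0018000 stood at 439 and 2209 FPKM, and 3B (ZS05g0121200) at 1222 and 1941 FPKM.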
